A study of Mus musculus with 9 samples.

Results

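The ATP-binding cassette (ABC) export pumps of the hepatocyte move bile salts, phospholipid, drugs and drug conjugates out of the liver cell. Their transcripts were followed here in TAMH cells exposed to acetaminophen or to its meta regioisomer. The genes were listed by symbol, and every probe set that the platform annotation gives to 1 of them was taken: Abcb1a, Abcb1b, Abcb4, Abcb11, Abcc1, Abcc2, Abcc3, Abcc4 and Abcg2. Of these 9 genes 8 had a probe set, and together they held 10 of the 22690 probe sets. Abcc4 is not analysed here. The 8 pumps were part of 12393 named genes.

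TAMH is an established mouse hepatocyte line that came from mice transgenic for TGF-alpha, and all groups share that background, with the strain labelled C57BL/6 and the tissue labelled liver. The groups were control culture medium, acetaminophen (APAP) at 2 mM and AMAP at 2 mM, each for 2, 6 or 24 h. Each group was 1 array, made from cells of 2 dishes, and whether the dishes were pooled is not given in the sources used here. The compounds differ in the position of the ring hydroxyl group, para in APAP and meta in AMAP, and the study's title names AMAP the less hepatotoxic of them. A value from 1 array has no replicate error, so a difference at a single time is given without a p. The spread of the 3 control arrays over time is given beside it as the only measure of variation without a compound.

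ABC pumps use ATP to carry their cargo across a membrane against its gradient. In the liver, bile flow depends on pumps in the canalicular membrane, while related pumps in the basolateral membrane return conjugates to the blood. Glucuronide and glutathione conjugates of acetaminophen leave the hepatocyte through such pumps, and several pump genes are textbook targets of the oxidant sensor NRF2 and of nuclear receptors for drugs and bile acids.

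The start regions of 4 pumps are shown as context, and no test related their letters to expression. Abcb1a, Abcb1b and Abcb4 are consecutive protein-coding genes on chromosome 5 in the RefSeq annotation. In that order, their log2 differences from control at 2 h were 0.66, 1.01 and -0.28 with APAP, and 1.13, 0.66 and 0.00 with AMAP. For Abcb1a these are from the brighter probe set, and its values and those of Abcb4 at 2 h lay below the median of all values. Abcc2 is a pump whose treated arrays all lay below its controls, though barely, and how many genes do so was not counted. Each sequence runs 5′ to 3′ on the gene's strand from 250 bases before to 50 bases after the annotated start, taken from RefSeq on build GRCm38.p6. Capitals mark a match, on either strand, to the antioxidant response core TGACNNNGC or the xenobiotic response core GCGTG. The regions are chr5:8566841-8567140 for Abcb1a, chr5:8797897-8798196 for Abcb1b, chr5:8893471-8893770 for Abcb4 and chr19:43782058-43782357 for Abcc2, all on the plus strand.
Abcb1a: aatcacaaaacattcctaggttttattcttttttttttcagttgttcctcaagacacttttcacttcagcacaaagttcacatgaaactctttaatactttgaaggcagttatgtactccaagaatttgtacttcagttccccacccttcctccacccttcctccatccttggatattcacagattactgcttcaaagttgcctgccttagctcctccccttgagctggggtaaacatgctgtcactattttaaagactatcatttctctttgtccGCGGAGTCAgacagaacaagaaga
Abcb1b: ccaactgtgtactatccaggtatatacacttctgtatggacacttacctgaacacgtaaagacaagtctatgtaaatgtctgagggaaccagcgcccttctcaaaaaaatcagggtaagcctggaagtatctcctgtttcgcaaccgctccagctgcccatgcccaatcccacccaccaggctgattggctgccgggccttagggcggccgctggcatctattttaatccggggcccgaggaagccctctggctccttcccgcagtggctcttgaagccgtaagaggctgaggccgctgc
Abcb4: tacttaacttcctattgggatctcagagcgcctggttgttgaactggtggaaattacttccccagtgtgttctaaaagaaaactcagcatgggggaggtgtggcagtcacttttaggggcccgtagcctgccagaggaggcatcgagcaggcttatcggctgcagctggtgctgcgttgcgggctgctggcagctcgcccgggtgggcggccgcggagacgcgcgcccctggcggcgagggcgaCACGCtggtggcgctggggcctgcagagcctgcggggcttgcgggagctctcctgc
Abcc2: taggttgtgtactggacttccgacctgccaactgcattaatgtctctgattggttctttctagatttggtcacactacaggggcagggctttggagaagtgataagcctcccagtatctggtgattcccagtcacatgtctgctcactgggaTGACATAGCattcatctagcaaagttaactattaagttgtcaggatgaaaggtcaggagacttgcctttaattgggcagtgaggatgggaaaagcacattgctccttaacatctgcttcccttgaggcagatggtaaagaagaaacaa

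The Abcc2 region held the antioxidant core on the plus strand, with its first base 98 bases before the start. The Abcb1a region held it on the minus strand, 26 bases after the start. The Abcb4 region held the xenobiotic core on the minus strand close to the start, and the Abcb1b region held none of the motifs searched, which also included the TATA box TATAAA. Among 32851 promoters of this length, 12.4% held the antioxidant core, 32.4% the xenobiotic core and 13.6% the TATA box, and in the printed regions no motif overlapped another. The table had a start region for 7 of the 9 listed genes, all but Abcc1 and Abcc3. These matches describe letters in a window and do not show that a factor binds there.

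The arrays were not all alike, which bears on several pumps. The APAP arrays at 6 and 24 h and the AMAP array at 24 h stand apart: their lower quartile of log2 values was 3.92, 3.82 and 3.84, against 3.50 to 3.63 on the other 6. A spike-in control, dap, is a bacterial transcript added during preparation, and in these 3 its middle probe set lay 1.58 to 1.94 log2 units below its 3′ probe set, against 0.44 to 0.60 elsewhere. The cells' own transcripts did not set the 3 apart in the same way. The 5′ minus 3′ difference of actin was -0.085, -0.277 and -0.126 on them, against -0.470 to -0.265 elsewhere. For Gapdh it was 0.049, 0.096 and 0.246, against 0.209 to 0.293. All 7 hepatocyte markers on the array were expressed, with mean log2 values from 8.23 to 13.06. Of the other cell types, 4 of 5 cholangiocyte markers, 1 of 6 macrophage markers, 0 of 6 stellate cell markers and 0 of 6 endothelial markers were. Expressed means a mean over the arrays of at least 5.67, the median of the probe-set means. Values are log2 units of the deposited normalization throughout, and levels are compared between arrays for 1 probe set, not between genes.

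Some pumps lay below 5.66, the median of all the values. Both Abcb1a probe sets and the Abcb11 probe set were below it on all 9 arrays. Abcb4 was below it on 6 arrays and at or above it on 3. Abcc2 was below it on 1 array only, APAP at 2 h. Abcb1b, Abcc1, Abcc3 and Abcg2 were above it on all 9 arrays. By the mean over arrays 5 of the 8 pumps, Abcb1b, Abcc1, Abcc2, Abcc3 and Abcg2, were expressed, as were 6700 genes in all. Differences of the pumps below the median are given as values only, and in bulk RNA a change in the number of cells and in the RNA per cell cannot be told apart.

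**Figure D1:**
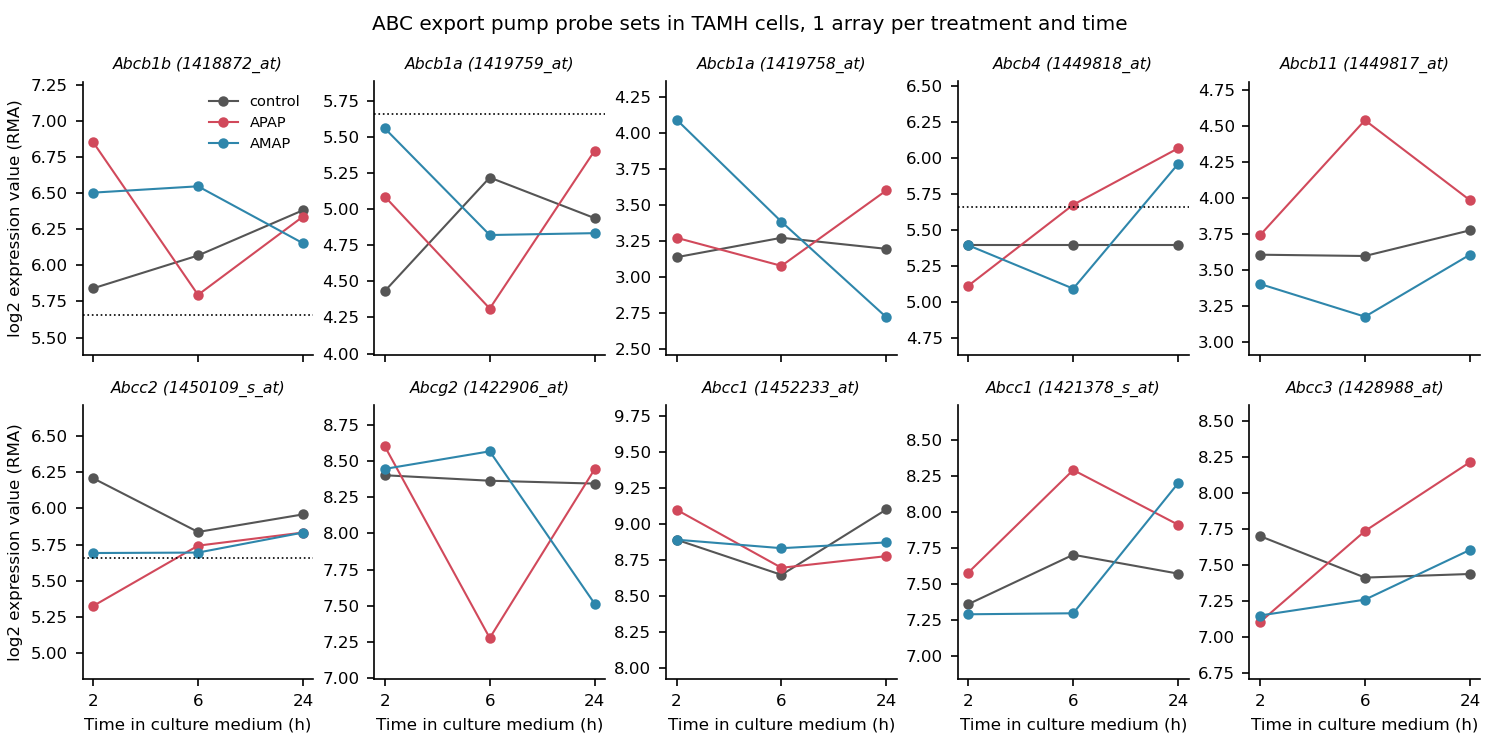
Log2 expression values of the 10 pump probe sets (vertical axes, each panel with its own range but the same span) at 2, 6 and 24 h (horizontal axes, times drawn equally spaced) for control (grey), APAP (red) and AMAP (blue), 1 array per point with no error bar. The dotted line is the median of all values, 5.66, where it falls in the panel. Abcb1b is highest on APAP at 2 h, Abcg2 is low on APAP at 6 h and AMAP at 24 h, and Abcc2 control points lie above the treated points at each time.

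The canalicular drug pump P-glycoprotein is encoded in mice by a pair of genes, Abcb1a and Abcb1b, whose products expel many hydrophobic drugs. Abcb1b (probe set 1418872_at) read 5.84 in control, 6.86 with APAP and 6.50 with AMAP at 2 h. It read 6.07, 5.80 and 6.55 at 6 h, and 6.38, 6.34 and 6.15 at 24 h, in the same order. The 2 h control was the lowest control and the 2 h APAP array the highest of all 9, and over the times treated and control arrays overlapped. At 2 h APAP exceeded control by 1.01, which is 2.02-fold, and AMAP exceeded control by 0.66. The controls alone spanned 0.54 over the times. A gene counted as 2-fold apart where the log2 difference was at least 1 and at least the higher array reached 5.66. For APAP against control at 2 h this held for 1 of 8 pumps, Abcb1b, beside 1.13% of all genes, and 1.69% of expressed genes differed at least as far as Abcb1b. For AMAP against control at 2 h it held for 0 of 8 pumps, beside 0.992% of all genes. APAP exceeded AMAP by 0.35 at 2 h, and lay 0.75 log2 units below it at 6 h, on an array that stands apart.

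The APAP array at 2 h also had the highest sum of the cholangiocyte markers, 35.82 log2 units over 5 genes, against 32.61 in the 2 h control and 34.11 with AMAP. The keratins Krt19 and Krt7 of bile duct cells made up this difference, at 2.10 and 1.44 above control, while Sox9 was 0.06 and Epcam 0.02 above control and Cftr differed from it by -0.42. For both keratins the 2 h control was the lowest control. In the 2, 6 and 24 h controls Krt19 read 6.585, 7.379 and 7.465, and Krt7 read 8.748, 8.98 and 9.106. The part of these markers in the Abcb1b value was not tested.

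Abcb1a, the other P-glycoprotein gene, was dim. Its brighter probe set (1419759_at) read 4.43, 5.09 and 5.56 in control, APAP and AMAP at 2 h, 5.22, 4.31 and 4.82 at 6 h, and 4.94, 5.41 and 4.84 at 24 h. The order of the treatments was different at each time, and the controls spanned 0.79. At 2 h AMAP was 1.13 above control, a 2.19-fold difference that did not count because both arrays were below the median, and APAP was 0.66 above control. The second probe set (1419758_at) read 3.14, 3.28 and 4.10 at 2 h, so that AMAP was 0.96 above control and APAP 0.14 above it. At 6 h the brighter probe set was lower with APAP than in control by 0.91 and the second by 0.20, and at 24 h AMAP was 0.10 and 0.47 lower. In both probe sets AMAP was thus the highest array at 2 h, and for Abcb1b APAP was. Abcb1a and Abcb1b are close paralogs, and whether their probe sets take up each other's transcripts was not tested.

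Abcb4, next to Abcb1b on the chromosome, encodes the floppase that supplies phosphatidylcholine to bile. Its probe set (1449818_at) read exactly 5.39 on 4 arrays, the 3 controls and AMAP at 2 h. It read 5.11 with APAP at 2 h, 5.67 and 5.09 with APAP and AMAP at 6 h, and 6.06 and 5.96 at 24 h. The 24 h arrays of both compounds were its highest. They exceeded the 24 h control by 0.67 and 0.56, and both are arrays that stand apart. The identical control values are not a sign of precision: a value shared exactly by 4 or more arrays occurred in 4.6% of probe sets, and by 2 or more in 46.1%.

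Abcb11 encodes the bile salt export pump, the main carrier of bile salts into the canaliculus. Its probe set (1449817_at) read 3.61, 3.74 and 3.40 in control, APAP and AMAP at 2 h, 3.60, 4.54 and 3.18 at 6 h, and 3.78, 3.99 and 3.61 at 24 h. All 9 values were far below the median of all values. Within that low range APAP was the highest and AMAP the lowest array at each of the 3 times. The gap between the compounds was 0.34 at 2 h, 1.36 at 6 h and 0.38 at 24 h, and the controls spanned 0.18. The 6 h gap was 2.57-fold but did not count, since neither array reached the median. At 6 h the lower quartile of all values was 3.92 on the APAP array and 3.50 on the AMAP array. The APAP array at 6 h and the 24 h arrays of both compounds stand apart. The part of this shift of low values in the Abcb11 order was not tested.

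Abcc2 encodes the canalicular conjugate pump Mrp2, which carries glutathione and glucuronide conjugates into bile. Its probe set (1450109_s_at, a type whose probes can match several transcripts) read 6.21 in control, 5.32 with APAP and 5.69 with AMAP at 2 h. It read 5.84, 5.74 and 5.69 at 6 h and 5.96, 5.83 and 5.83 at 24 h. All 6 treated arrays, at 5.32 to 5.83, were below all 3 controls, at 5.84 to 6.21. The highest treated and the lowest control array nearly touched, and the share of all genes whose arrays separate this way was not counted. The difference was largest at 2 h, where APAP was 0.89 lower than control, which is 1.85-fold, and AMAP 0.52 lower. At 6 h the compounds were 0.10 and 0.14 lower, and at 24 h each was 0.13 lower. Those later differences were inside the span of the controls, 0.37, and Abcc2 was 2-fold apart at no time.

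Abcg2 encodes Bcrp, a canalicular pump that exports sulfate conjugates and many drugs. Its probe set (1422906_at) read 8.40, 8.61 and 8.45 in control, APAP and AMAP at 2 h, 8.37, 7.28 and 8.57 at 6 h, and 8.35, 8.45 and 7.51 at 24 h. The controls were within 0.06 of each other and 4 of the 6 treated arrays lay at or above the controls at their own time. The exceptions were APAP at 6 h and AMAP at 24 h. At 6 h APAP was lower than control by 1.09, which is 2.13-fold, and lower than AMAP by 1.29, which is 2.45-fold. At 24 h AMAP was lower than control by 0.83 and APAP exceeded AMAP by 0.93.

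At 6 h Abcg2 was the 1 of 8 pumps that was 2-fold apart in APAP against control, beside 3.88% of all genes, and in APAP against AMAP, beside 6.75%. Among expressed genes 4.69% and 5.22% differed at least as far in those comparisons, so the Abcg2 differences were of a size that many genes showed on these arrays. AMAP against control at 6 h counted 0 of 8 pumps, beside 0.726% of genes. Both low Abcg2 arrays are among the 3 that stand apart by the spike-in control, and on the remaining such array, APAP at 24 h, Abcg2 was 0.10 above control. The part of these array differences in the Abcg2 values was not tested.

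Of the basolateral pumps, Abcc3 encodes Mrp3, which returns glucuronides and bile salts to the blood. Its probe set (1428988_at) read 7.70, 7.11 and 7.15 in control, APAP and AMAP at 2 h, 7.42, 7.74 and 7.26 at 6 h, and 7.44, 8.22 and 7.61 at 24 h. Both compounds were lowest at 2 h and highest at 24 h, while the control was highest at 2 h. At 2 h APAP was 0.60 lower than control and AMAP 0.55 lower, both more than the span of the controls, 0.29. At 24 h APAP was 0.78 above control and 0.61 above AMAP, and AMAP was 0.17 above control. APAP and AMAP were within 0.05 of each other at 2 h. The 24 h arrays of both compounds stand apart, and the 2 h arrays do not.

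Abcc1 encodes Mrp1, a conjugate and glutathione pump that is scarce in resting hepatocytes and common in dividing cells. It was read by a pair of probe sets that did not move alike. The brighter (1452233_at) read 8.89, 9.10 and 8.89 in control, APAP and AMAP at 2 h, 8.65, 8.70 and 8.83 at 6 h, and 9.10, 8.78 and 8.87 at 24 h. Its treated arrays lay within the control range of 8.65 to 9.10. The other (1421378_s_at) is, like that of Abcc2, of a type whose probes can match several transcripts. This second probe set read 7.36, 7.58 and 7.29 at 2 h, 7.70, 8.29 and 7.30 at 6 h, and 7.57, 7.91 and 8.20 at 24 h. In it APAP at 6 h was 0.59 above control and AMAP at 24 h 0.63 above, where the brighter probe set gave 0.05 and -0.23. APAP exceeded AMAP at 6 h by 0.99 in the second and lay 0.14 below it in the brighter one. At 2 h the pair gave nearly the same APAP difference, 0.22 and 0.21. The 3 highest arrays of the second probe set are the 3 that stand apart.

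**Figure D2:**
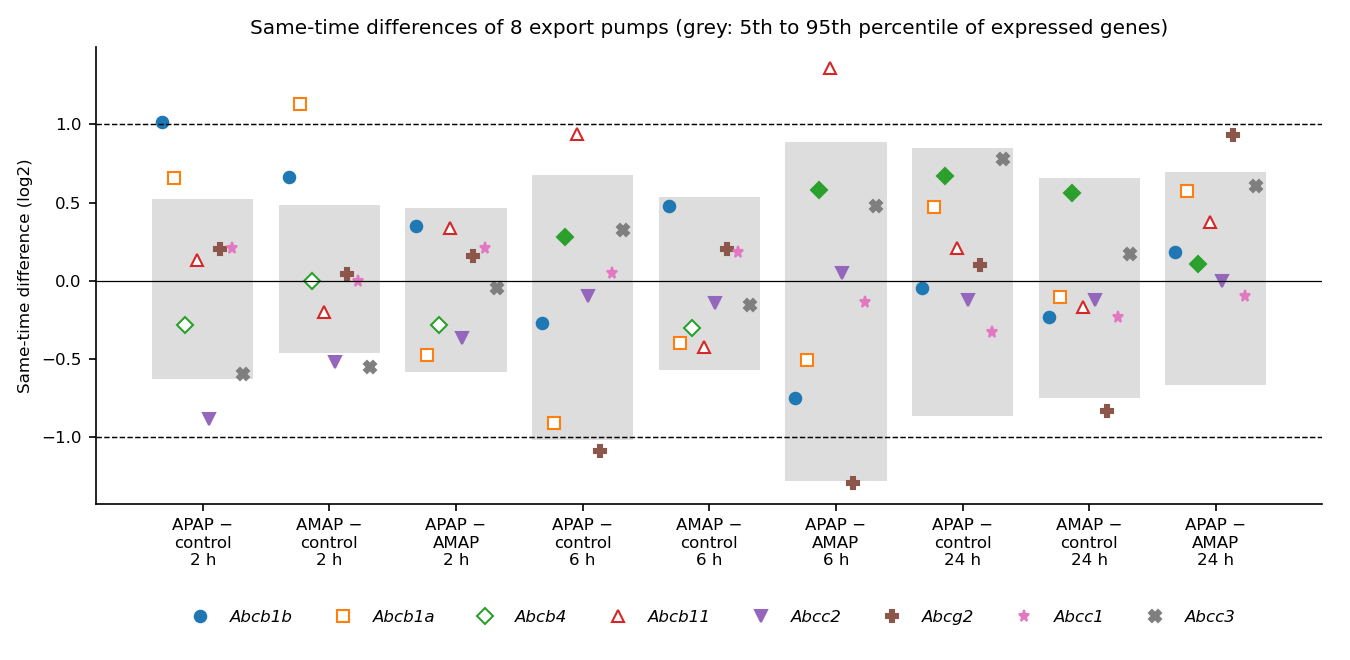
Same-time log2 differences (vertical axis) of the 8 pumps in the 9 comparisons (horizontal axis), 1 array against 1 array, so without error bars. Grey boxes span the 5th to 95th percentile of expressed genes, dashed lines mark 2-fold, and open markers are values where neither array reached the median. Filled markers pass 2-fold at 3 places: Abcb1b at 2 h, and Abcg2 in both APAP comparisons at 6 h. The open Abcb1a and Abcb11 markers beyond the dashed line do not count.

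Set beside all genes, pump differences ran in both directions, with the dim pumps counted too. In APAP against control at 2 h, 5 pumps were higher and 3 lower, with a median of 0.17 against 0.00 for all genes. In AMAP against control at 2 h, 3 were higher and 3 lower, with medians of 0.00 for both. At 6 h APAP gave 4 higher and 4 lower, with a median of -0.02 against 0.10, and AMAP gave 3 higher and 5 lower, with -0.15 against -0.12. At 24 h APAP gave 5 higher and 3 lower, with 0.16 against 0.17, and AMAP gave 2 higher and 6 lower, with -0.15 against 0.16. APAP and AMAP comparisons at a time share the same control array, so their values are not independent. At 24 h 0 of 8 pumps were 2-fold apart, beside 4.08% of genes for APAP, 1.89% for AMAP and 1.88% between the compounds.

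Counted over the 9 comparisons, 2 of the 8 pumps, Abcb1b and Abcg2, were 2-fold apart at least once, beside 12.6% of all genes. At 1.5-fold there were 5, with Abcb4, Abcc2 and Abcc3 added, beside 36.9% of genes, and after cyclic loess scaling there were 4, without Abcb4. When the 5 comparisons that use an array standing apart were left out, 1 pump was left, Abcb1b, beside 2.73% of genes in the remaining 4. The share of all genes after loess scaling was not counted. The counts are of 8 genes only, and none of the shares was tested.

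The direct comparison of the regioisomers used matched doses and times. At 2 h 4 pumps were higher with APAP and 4 with AMAP, the median difference was 0.06, and 0 of 8 were 2-fold apart beside 0.968% of all genes. At 6 h 4 were higher and 4 lower, with a median of -0.05 against 0.23 for all genes. The largest 6 h gaps ran in opposite directions: Abcb11 was 1.36 higher with APAP and Abcg2 1.29 lower. The APAP array at 6 h stands apart, and Abcb11 was below the median on all arrays. At 24 h 6 pumps were higher with APAP and 1 lower, with a median of 0.28 against 0.00. Abcg2 and Abcc3 gave the largest of these, 0.93 and 0.61, and Abcc2 read the same for both compounds. Abcb1a, Abcb11 and Abcb4, which were not expressed by their means, were among the higher ones, at 0.57, 0.38 and 0.11. Both of these 24 h arrays stand apart. Of 7 hepatocyte markers 6 were higher with APAP than with AMAP on these arrays, 3 of them 2-fold, beside 1.88% of all genes. The markers had a median of 0.82 against 0.02 for expressed genes. Against control their median was 0.96 with APAP and -0.25 with AMAP, their summed log2 value was 72.14 in control, 76.23 with APAP and 70.71 with AMAP, and their part in the pump values was not tested.

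Differences shared by the 3 times were tested with limma, with treatment and a time block fitted to 6700 expressed genes and Benjamini-Hochberg adjustment over all of them. This is the test that uses 3 arrays per treatment. No gene passed an adjusted p of 0.05 in any of the 3 contrasts, 0.0% each, so neither did any pump, and 514, 30 and 285 genes had an unadjusted p under 0.05 in APAP against control, AMAP against control and APAP against AMAP. Of the 5 expressed pumps 0 were among those in each contrast. Abcc2 had the largest shared APAP difference, -0.37 ± 0.20 (SE; limma adjusted p = 0.633), with a 95% interval from -0.82 to 0.08. Its AMAP difference was -0.26, from -0.71 to 0.18 (limma adjusted p = 1). Abcb1b was 0.23 higher with APAP, from -0.39 to 0.86, and 0.30 higher with AMAP, from -0.32 to 0.93. Abcg2 was lower by 0.26 with APAP, but its interval ran from -1.08 to 0.55, the widest of the 5 pumps.

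Between the compounds, the 5 expressed pumps gave 5 tested pairs, adjusted with all 6700 genes. Abcc3 was 0.35 ± 0.25 (SE) higher with APAP, with a 95% interval from -0.21 to 0.90 (limma adjusted p = 0.872). Abcc2 differed by -0.11, from -0.55 to 0.34, and Abcb1b by -0.07, from -0.70 to 0.55. Abcg2 differed by -0.07, from -0.88 to 0.75, although its 6 h and 24 h gaps were large, because they ran in opposite directions. Abcc1 differed by -0.01, from -0.41 to 0.39, the narrowest interval. A 1.5-fold difference lay inside the Abcg2 interval in both directions and inside those of Abcb1b and Abcc3 in 1 direction, so these p-values do not show that the compounds act alike. When dim genes were also fitted, Abcb11 was 0.69 ± 0.22 (SE) higher with APAP than with AMAP, from 0.19 to 1.20 (limma adjusted p = 0.808).

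The expressed genes whose 9 values ran most like those of a pump were found for Abcg2 and Abcc3, the expressed pumps with the largest SD over the arrays, 0.48 and 0.35. For Abcg2 they were Ier3ip1 (Pearson r = 0.991), Swi5 (0.989) and Cenpq (0.987), over 9 arrays and 6695 genes, and 127 genes had an r above 0.9. Swi5 was lower than control by 1.13 with APAP at 6 h and by 0.91 with AMAP at 24 h, the same arrays on which Abcg2 was low. For Abcc3 they were Pdzk1ip1 (0.971), Siae (0.951) and Naglu (0.951), with 57 genes above 0.9. Naglu, a lysosomal enzyme, was 0.68 lower than control with APAP at 2 h and 0.90 higher at 24 h. The arrays share treatment, time and quality, so these r values are a description.

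**Figure D3:**
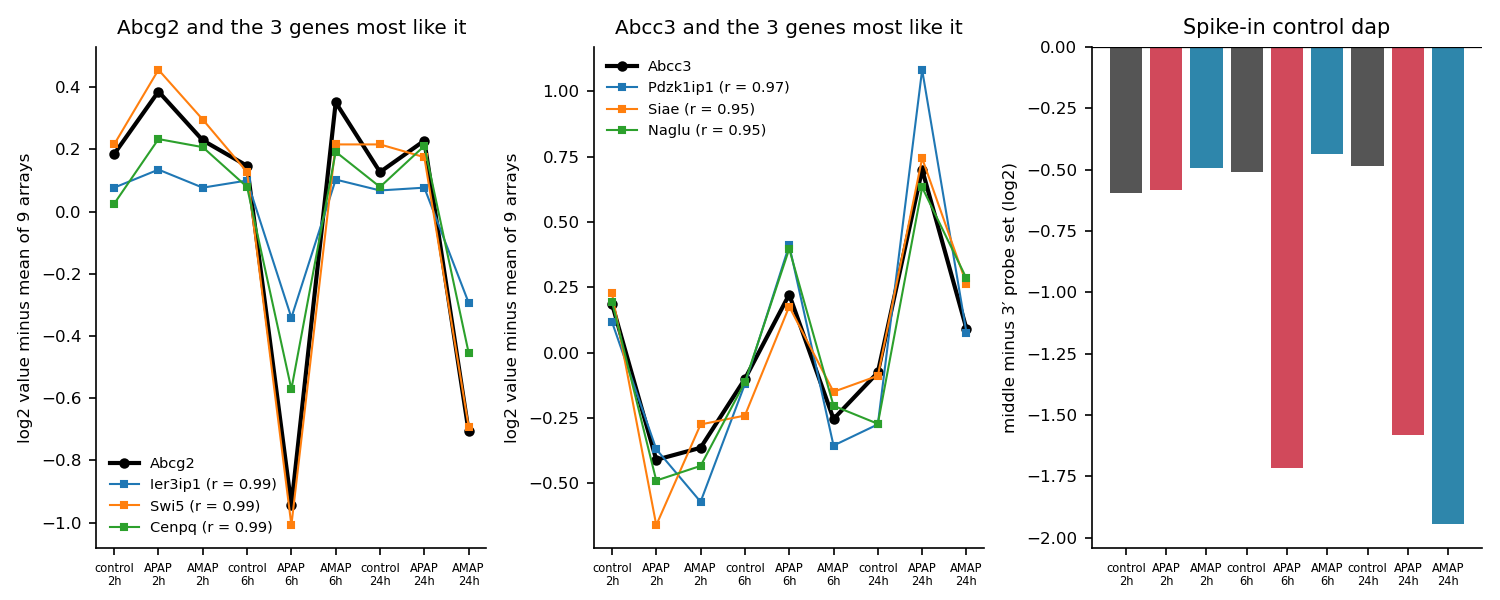
Left and middle: log2 value minus the gene's mean over 9 arrays (vertical axes) for Abcg2 and for Abcc3 (black), each with the 3 expressed genes of highest Pearson r, on 9 arrays (horizontal axes), with lines only to guide the eye. Right: middle minus 3′ probe set of the spike-in dap on each array, bars from 0 coloured by treatment as grey control, red APAP and blue AMAP. Abcg2 and its 3 genes are low on APAP at 6 h and AMAP at 24 h, which are, with APAP at 24 h, the arrays with the lowest spike-in values.

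The rest of the bile-forming apparatus was mostly dim. Of 16 listed partners, such as uptake carriers and bile acid exporters, 11 were on the array and 1, the anion exchanger Slc4a2, was expressed. Slc10a1, the bile salt uptake carrier Ntcp, read 2.95 to 3.25 on the 9 arrays. Abcg5, which with Abcg8 forms the sterol pump of the canaliculus, read 6.07 in the 2 h control, 4.46 with APAP and 4.85 with AMAP. It was lower than control by 1.61 and 1.21 at 2 h, while its relative Abcg2 was 0.20 and 0.04 above control on those arrays. The 2 h control was the highest Abcg5 control, with 5.36 at 6 h and 5.53 at 24 h, and Abcg5 was not expressed by its mean. At 6 h it was 0.60 above control with APAP. Abcg8 was 1.09 above control with APAP at 6 h, and the uptake carrier Slco1a4 was 0.79 above with APAP at 24 h. In both genes the higher array stands apart.

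Of 35 other ABC genes listed, 29 were on the array and 16 expressed. At 2 h 0 of 29 were 2-fold apart from control with either compound, beside 1.13% and 0.992% of all genes. At 6 h the same 0 held for both compounds, beside 3.88% and 0.726%, and 1 was lower with APAP than with AMAP, beside 6.75%. At 24 h APAP gave 2 higher and 1 lower than control, beside 4.08%, AMAP gave 1 lower, beside 1.89%, and 0 differed 2-fold between the compounds, beside 1.88%. The median of the 16 was -0.17 with APAP and -0.06 with AMAP at 2 h. Abca1, the cholesterol exporter to lipoprotein, was lower with APAP than in control by 0.99 at 2 h and by 0.97 at 6 h, and AMAP differed from control by -0.06 and 0.30. Abcc5, a nucleotide exporter and relative of the Mrp pumps, was 1.24 above control with APAP and 0.67 with AMAP at 24 h. Abcd4, a lysosomal transporter whose mean was below the median, was 1.19 above control with APAP at 24 h. Cftr, the chloride channel of duct cells, was lower with APAP by 1.02 and with AMAP by 1.57 at 24 h. The APAP array at 6 h and the 24 h arrays of both compounds stand apart, and their part in these values and counts was not tested.

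The sensors that control pump genes included 11 expressed of 15 on the array. Nr1h4, the bile acid receptor FXR that drives Abcb11, was expressed, at 6.64 to 7.46, while Nr1i2 and Nr1i3, the drug receptors PXR and CAR, were below the median on all 9 arrays. Ppara was 1.08 above control with APAP at 2 h and 1.55 with AMAP at 6 h. Maff, a small Maf partner of NRF2, was 1.15 above control with AMAP at 2 h and 0.58 with APAP. Nfe2l2, the gene of NRF2 itself, was lower with APAP than with AMAP by 1.16 at 6 h, on an array that stands apart. Of 17 expressed NRF2 targets 16 were lower with APAP than in control at 2 h, with a median of -0.30 against -0.01 for expressed genes, and 17 of 17 were lower with APAP than with AMAP, with a median of -0.34 against 0.00. With AMAP 11 were lower and 6 higher than control, with a median of -0.03. At 6 h the counts turned: with APAP 10 were higher and 7 lower than control (median 0.15), 11 were higher and 6 lower than with AMAP (0.31), and with AMAP 14 of 17 were lower than control (-0.27 against -0.10 for expressed genes). At 24 h 10 were higher and 7 lower than control with each compound, and 7 were higher and 10 lower with APAP than with AMAP. The APAP array at 6 h and the 24 h arrays of both compounds stand apart. Of the expressed targets, Gsta3 was lower than control with APAP by 1.02 at 2 h and Hmox1 was 0.81 above control with APAP at 6 h. Slc7a11, a cystine carrier on the list that was not expressed by its mean, was 1.42 above control with AMAP at 2 h, where it reached 5.74. These 2 h shifts stood beside lower Abcc2 and Abcc3 and higher Abcb1b on the same APAP array, and no relation between them was tested.

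**Figure D4:**
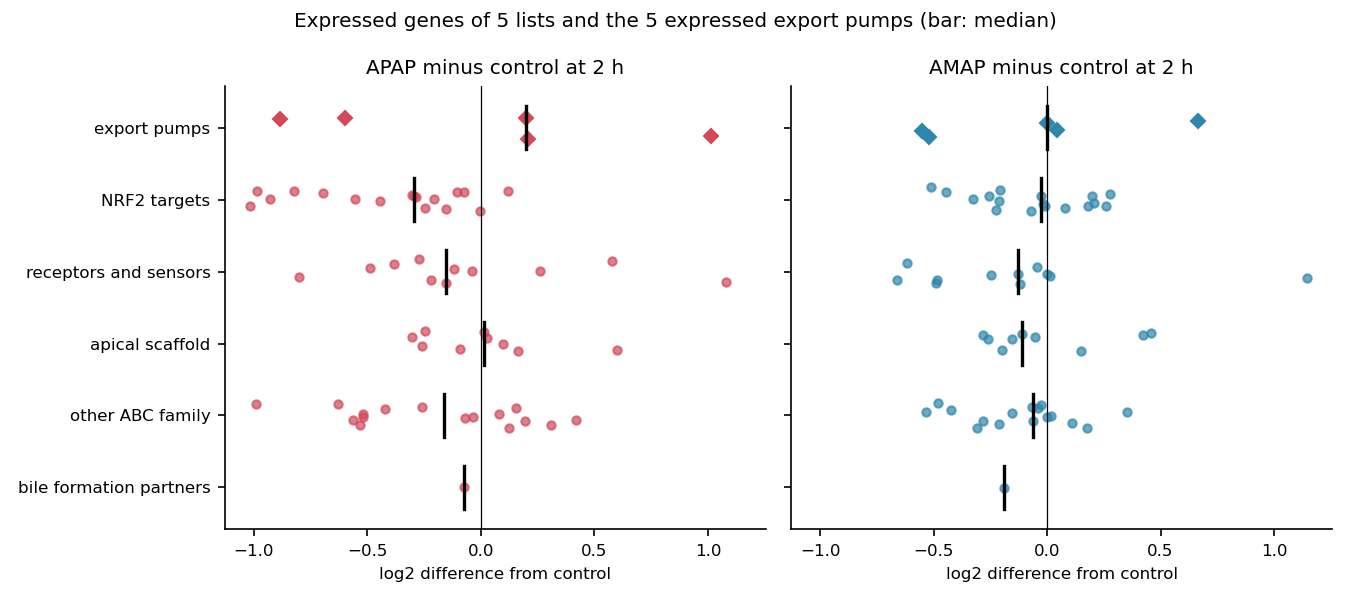
Log2 difference from control at 2 h (horizontal axes, same range) for APAP (left, red) and AMAP (right, blue), 1 array against 1 array. Each circle is an expressed gene of 1 of 5 lists, each diamond 1 of the 5 expressed pumps, and black bars are medians. With APAP the NRF2 targets lie mostly below 0, with a median of -0.30, and with AMAP around it, with -0.03, while pumps lie on both sides in each panel.

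Scaffold and trafficking proteins that hold the pumps in the apical membrane were expressed in 9 of 11 cases. Rdx encodes radixin, which ties Mrp2 to the actin cortex of the canaliculus. It read 10.17, 9.91 and 9.91 in control, APAP and AMAP at 2 h, 9.91, 8.26 and 9.98 at 6 h, and 9.94, 9.18 and 8.61 at 24 h. Its 3 lowest arrays are those that stand apart, with differences from control of -1.65 for APAP at 6 h, and -0.76 and -1.33 for APAP and AMAP at 24 h. The transcript of Abcc2, whose product radixin holds, was lowest on another array, APAP at 2 h, and a relation between Rdx and Abcc2 was not tested. Rab11a, which recycles pumps to the canaliculus, was 0.87 lower than control with APAP at 6 h, and Slc9a3r1, the scaffold NHERF1, was 0.57 above control on that array and 1.04 above AMAP.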

How the data were processed

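RNA of 9 TAMH cultures was read on Affymetrix mouse 430A_2 arrays, 1 per treatment and time. For each probe set the authors deposited a log2 value. The submitters' processing notes name RMA and Affymetrix Expression Console, and neither the version nor a joint run of all arrays is given in the sources used here. RMA equalizes probe intensity distributions and thereby hides any change in total RNA. With so few arrays precision is low.

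Of 22690 probe sets, 20380 had 1 gene symbol in the platform annotation, 691 several, 1555 none and 64 were controls. A gene was represented by its 1-symbol probe set of highest mean, and every pump probe set is also given. Same-time log2 differences have no test. Shared differences were fitted with limma 3.58.1 in R 4.3.3, with 4 residual degrees of freedom and a median residual SD of 0.253. Tested on simulated arrays of 6700 genes for APAP minus control, it recovered 0% of genes shifted by 0.5 log2, 47.5% by 1 and 92% by 2. P-values are set against the scatter left after treatment and time are fitted. Since no group has a replicate, that scatter mixes array variation with responses that change over time.

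The pumps, gene lists, motifs and rules were chosen with earlier results of these data known. Named genes are all pump probe sets, up to 3 genes of each list with the largest difference at or above the median, and the 3 genes most like each of the 2 most variable expressed pumps. Other genes, namely Krt7, Krt19, Sox9, Epcam, Abcd4, Slc4a2, Slc10a1, Nr1h4, Nr1i2 and Nr1i3, were named after their values were seen. Alternatives were another fold, no filter, other probe-set rules, other scalings and leaving out arrays.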

Additional observations from a re-analysis of the deposited data

Results flagged for a closer look

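Abcc3 differed from control in opposite directions at different times with APAP. It was -0.597 on the log2 scale at 2 h and 0.776 at 24 h. The 24 h APAP array has a spike-in value of -1.583, against -0.585 on the 2 h APAP array. AMAP, against the same controls, gave -0.551 and 0.168.

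Abcg2 differed between the compounds in opposite directions, with APAP minus AMAP at -1.294 at 6 h and 0.935 at 24 h. In each case the lower array was one with a low spike-in value, -1.717 on the 6 h APAP array and -1.945 on the 24 h AMAP array, and the part of that in the result was not tested. With 1 array per treatment and time, the difference between times was not tested for either gene.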

How the results depend on the processing

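The count of pumps 2-fold apart at least once was 2. It was 5 at 1.5-fold, beside 36.9% of all genes. It was 4 without the filter on low values, which adds Abcb1a (AMAP minus control at 2 h, 1.13) and Abcb11 (APAP minus AMAP at 6 h, 1.36). The share of all genes was not counted without the filter or under other probe-set rules and scalings, so those counts cannot be set beside a background. It was 1 in the comparisons without the 3 arrays that stand apart, an alternative chosen after seeing the data. It stayed 2, again Abcb1b and Abcg2, with the mean of a gene's probe sets, cyclic loess and median centring. The 12 pump differences of 1.5-fold or more moved by less than the residual SD under both scalings, but some lost that size. Abcb4 (APAP minus control at 24 h) went from 0.67 to 0.46 with loess and 0.54 with centring, Abcc3 (APAP minus AMAP at 24 h) from 0.61 to 0.58 and 0.57, and Abcc3 (APAP minus control at 2 h) from -0.60 to -0.57 with centring. In alternatives added after seeing the data, the 1.5-fold count was 4 with loess, without Abcb4, and 5 with centring, where Abcb4 counted through APAP minus AMAP at 6 h (0.60). Loess moved the median of all genes in APAP minus AMAP at 6 h from 0.23 to 0.05, and in both compounds against control at 24 h from 0.17 and 0.16 to 0.03. The shared fit called 0 pumps and 0 genes under all 11 alternatives, with a lowest pump adjusted p of 0.472 (limma, without the 3 arrays that stand apart, 1 residual degree of freedom). No paired analysis was possible because the labels carry no replicate numbers to pair by. The shared fit matched treatments by time, and it also called 0 pumps with no time block. Dim probe sets limit what Abcb1a, Abcb4 and Abcb11 can show.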
